A study of Mus musculus with 31 samples.

Results

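Kidney RNA-seq libraries from 13 Pcy/CD1 mice treated with RGLS4326 were compared with libraries from 12 Pcy/CD1 mice given PBS, 25 of the 31 libraries in the series. The series holds 14 RGLS4326 libraries, and the one numbered 9 (mouse 9) was left out. Its exclusion was selected on measured expression, which lay close to that of untreated wild-type mice. That choice used the outcome itself, so counts of calls with mouse 9 are also given, together with the value of each named gene whose call changed when it was included. The other 5 libraries came from untreated wild-type CD1 mice, which served as a reference. The comparison asks how transcripts of each kidney cell type and pathway differed at the end of long-term treatment with an oligonucleotide that inhibits the miR-17 family.

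The 2 Pcy/CD1 groups shared the same genotype, the CD1 strain carrying the recessive pcy mutation, which gives slowly progressing polycystic kidneys. RGLS4326 was injected subcutaneously at 25 mg kg−1 once a month from 5 weeks of age until 30 weeks, for 25 weeks of dosing. PBS mice started at the same age. Their sample labels give weekly injections, whereas the protocol text reads as monthly. Wild-type CD1 mice were age-matched males that received no injection and do not carry the pcy mutation, so they differ from the PBS group in genotype and in injection. Each library is 1 mouse and 1 whole kidney sample, in which cysts, tubules, vessels, connective tissue and immune cells are mixed. For RNA-seq of this model the study's figure legend gives fewer mice in each group than there are libraries here.

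MicroRNAs of the miR-17 family pair through their seed with sites in 3′ untranslated regions and lower the output of the targeted transcripts. In polycystic kidneys the tubule wall expands into cysts that arise largely from the collecting duct in many models, the proximal tubule loses transporters and mitochondrial enzymes, and fibroblasts and immune cells accumulate between the tubules. Proximal tubule cells reabsorb most of the filtered solutes and burn fatty acids, whereas principal cells of the collecting duct take up sodium and water under the control of aldosterone and vasopressin.

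The sequences of the 6 mouse family members (RefSeq, GRCm38.p6) are shown because the oligonucleotide binds their shared 5′ end. Capitals mark the seed, bases 2 to 8, which was identical in all 6.
miR-17-5p: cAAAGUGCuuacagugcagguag
miR-20a-5p: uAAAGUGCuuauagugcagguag
miR-20b-5p: cAAAGUGCucauagugcagguag
miR-93-5p: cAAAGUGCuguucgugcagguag
miR-106a-5p: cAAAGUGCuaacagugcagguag
miR-106b-5p: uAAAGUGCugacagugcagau
They are encoded in 3 clusters, with miR-17 and miR-20a on the plus strand of chromosome 14, chr14:115043684-115043706 and chr14:115044183-115044205. The genes of miR-20b and miR-106a lie on the minus strand of chromosome X, and those of miR-93 and miR-106b on the minus strand of chromosome 5.

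Mouse 9 stood apart from the other 13 RGLS4326 mice at genes that separate the genotypes. At 27 genes, the 25 compared Pcy/CD1 libraries and the 5 CD1 libraries did not overlap and were at least 4-fold apart. These genes were chosen for this separation without mouse 9 and are given as a description. In mouse 9 all 27 lay outside the Pcy/CD1 range and nearer to the CD1 range, and 15 lay within the CD1 range. Gm8615 measured 0.0497 to 0.494 CPM (counts scaled to the size of each library) in the 25 Pcy/CD1 libraries, 84.6 to 98.5 CPM in CD1 and 89.2 CPM in mouse 9. Ctnna2, an alpha catenin of cell junctions, measured 0 to 0.11 CPM in the Pcy/CD1 libraries, 6.43 to 8.49 CPM in CD1 and 7.88 CPM in mouse 9. Stab2, a scavenger receptor of sinusoidal endothelium, was high in Pcy/CD1, at 59 to 127 CPM, against 0.59 to 1.57 CPM in CD1 and 1.58 CPM in mouse 9. Lcn2, which encodes the injury marker NGAL, measured 126 to 1205 CPM in the Pcy/CD1 libraries, 0.944 to 11.2 CPM in CD1 and 2.75 CPM in mouse 9. Mouse 9 therefore goes against its strain label at these genes, with values like those of CD1 kidneys, and the reason was not tested.

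**Figure D1:**
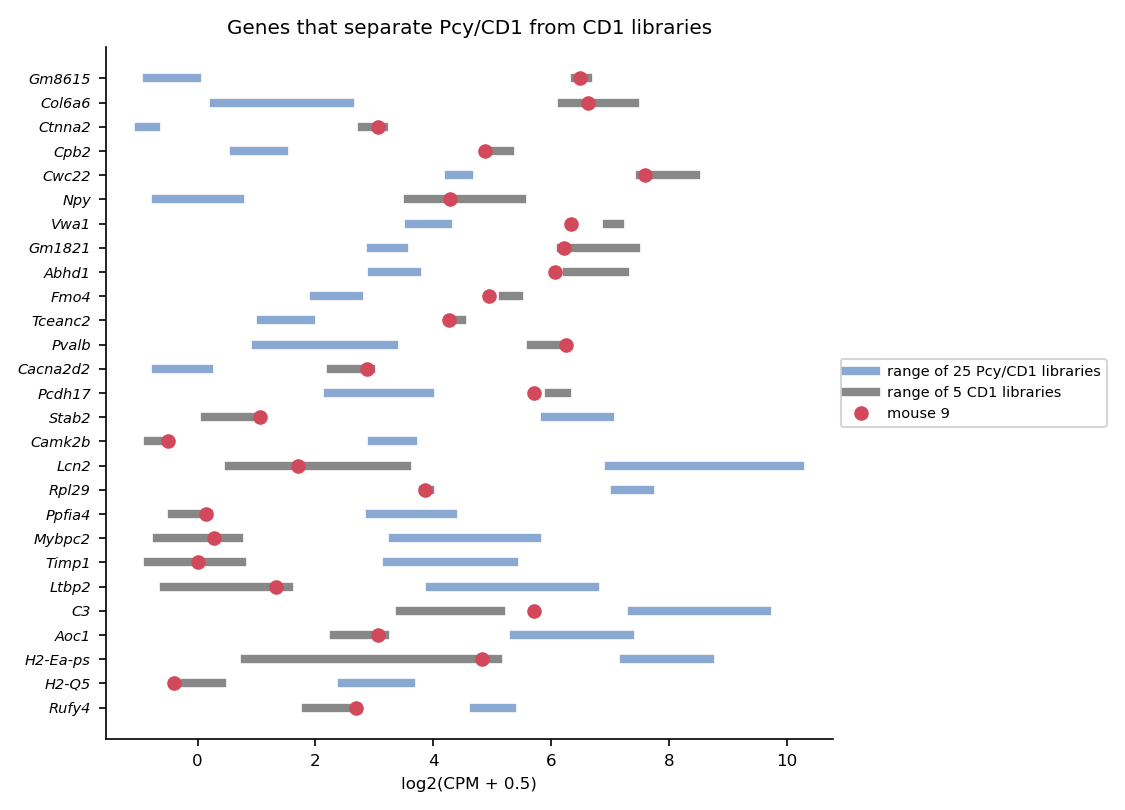
Expression on the log2(CPM + 0.5) scale (horizontal axis) of the 27 genes (vertical axis) whose 25 compared Pcy/CD1 libraries (blue bars, lowest to highest) and 5 CD1 libraries (grey bars) are at least 4-fold apart. Mouse 9 (red points) lies outside the blue range at all 27 genes and within the grey range at 15.

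Counts on genes per library ran from 14892524 to 27459962 with RGLS4326 and from 16519885 to 25582754 with PBS, and reads outside annotated genes made up 10.4 to 12.5% of all reads in both groups. The 10 most abundant genes took 10.7 to 13.96% of gene counts with RGLS4326 (median 12.3%) and 8.26 to 12.7% with PBS (median 10.6%), against 14.2 to 15.1% in CD1. On the first principal component, which held 67.2% of the variance, the 25 compared libraries lay between −44.2 and 15.4, the CD1 libraries between 59.5 and 67.1 and mouse 9 at 54.9. The RGLS4326 and PBS libraries overlapped on it, with medians of −12.5 and −20.3. Expression is given below as CPM on library sizes scaled by edgeR's TMM method, which allows a gene to be compared between mice but not with other genes, since gene length is not taken into account.

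Of 15166 genes tested, 1234 (8.14%) had an adjusted p under 0.05 (quasi-likelihood test of edgeR, p-values adjusted after Benjamini and Hochberg). They comprised 706 higher (4.66%) and 528 lower (3.48%) with RGLS4326. The differences were small. The median log2 fold change over all genes was −0.01, and the middle of the distribution ran from −0.12 to 0.10 between the quartiles. Of all genes tested, 48.6% had a positive fold change. Of the called genes, 145 (0.956% of those tested) differed by more than 0.5 on the log2 scale, 53 higher (0.349%) and 92 lower (0.607%). With mouse 9 among the treated mice, 2402 of 15185 genes were called (15.8%), 1390 higher (9.15%) and 1012 lower (6.66%). A total of 1200 genes were called in both. In what follows, a gene "rose" or "fell" only if its adjusted p was under 0.05 without mouse 9. The shares of all genes that rose and fell, 4.66% and 3.48%, are the reference for the shares given for lists.

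The number of calls depended on single mice. It was 351 without PBS mouse 10 and 2891 without PBS mouse 4, and it moved by more than 1.5 times in 15 of the 25 fits that each left out 1 mouse. Of the 1234 genes, 335 (194 higher, 141 lower) were called in all 25 of those fits. The deposited library numbers restart within each group and so form 3 series, with 4, 4 and 4 PBS mice and 4, 4 and 5 RGLS4326 mice. What the series stand for is not given in the sources used here. Within each series alone edgeR called 0 genes after adjustment, while 280, 2242 and 3045 genes had an unadjusted p under 0.05 in series 1, 2 and 3. DESeq2 was not run within series. With series as a covariate, 1206 genes were called.

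**Figure D2:**
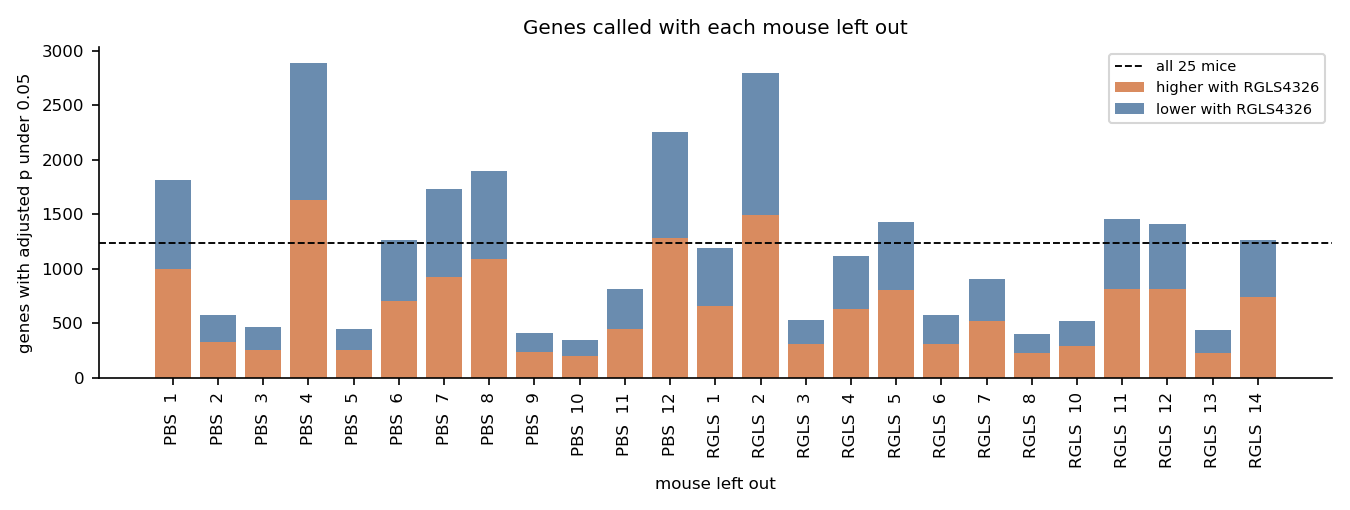
Genes with an adjusted p under 0.05 (vertical axis) when the mouse named on the horizontal axis is left out, split into higher (orange) and lower (blue) with RGLS4326. The dashed line marks the 1234 genes of all 25 mice, and the bars run from 351 without PBS mouse 10 to 2891 without PBS mouse 4.

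Transcripts of the proximal tubule tended to be higher in RGLS4326 kidneys, and a minority of them passed the test. The list of 22 markers shared by all proximal tubule segments had 3 genes that rose (13.6%, against 4.66% of all genes) and none that fell. All 22 fold changes were positive, against 48.6% of all genes, with a median of 0.29. The mean level of the list, on a log2(CPM + 1) scale, ran from 8.62 to 9.55 with PBS (median 9.11) and from 9.06 to 9.77 with RGLS4326 (median 9.36). It exceeded the PBS median in 12 of the 13 treated mice, although the groups overlapped, and all 5 CD1 mice were higher, between 10.2 and 10.4. Within library number series 1, 2 and 3 the median fold change was 0.10, 0.25 and 0.44. With mouse 9, 10 of the 22 genes were called higher and the median was 0.35. When 1 mouse was left out, the number called higher ran from 1 (without PBS mouse 10, among others) to 10 (without RGLS4326 mouse 2), while the median stayed between 0.25 and 0.33. In bulk kidney RNA, fewer cells of a type and less RNA per cell cannot be told apart.

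Keg1, a glycine acyltransferase-like enzyme of the kidney, was the most clearly changed of these markers. It measured 501 to 1370.5 CPM with PBS (median 778) and 969 to 1937 CPM with RGLS4326 (median 1183). All 13 treated mice lay above the PBS median, 9 PBS mice lay below every treated mouse, and the ranges overlapped through the 3 highest PBS mice. The log2 fold change was 0.60 (SE 0.14, adjusted p = 0.0136, edgeR), with 0.26, 0.61 and 0.91 in series 1, 2 and 3, and the gene was called in all 25 leave-one-out fits.

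Hnf4a, the transcription factor that maintains proximal tubule identity, rose by 0.30 on the log2 scale (SE 0.09, adjusted p = 0.0354, edgeR), from a median of 609 CPM (range 442 to 745) to 725 CPM (547 to 933). Slc22a6, the basolateral organic anion transporter OAT1, rose by 0.29 (SE 0.09, adjusted p = 0.0457, edgeR), from a median of 846 CPM (663 to 1224) to 1058 CPM (871 to 1308). Both overlapped broadly between groups, and they were called in 15 and 12 of the 25 leave-one-out fits. Slc34a1, the main phosphate transporter of this segment, had a log2 fold change of 0.27 (SE 0.13) that did not pass the test (adjusted p = 0.138, edgeR).

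By segment, 0 of 8 markers of the first segment (S1) were called, with a median fold change of 0.27, and 2 of 10 markers of the last segment (S3) rose, with a median of 0.35. The S3 genes were Cyp7b1, an oxysterol hydroxylase, at 0.48 (SE 0.15, adjusted p = 0.0462, edgeR) and the ubiquitin ligase Rnf24 at 0.54 (SE 0.17, adjusted p = 0.0497, edgeR). They were called in 11 and 8 of the 25 leave-one-out fits. With mouse 9, 2 of the S1 and 4 of the S3 markers were called higher. Without PBS mouse 10 no S3 marker was called, and without PBS mouse 4 8 were called higher. Whether S1 and S3 differed in their response was not tested.

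With all compared mice, transporters and enzymes that the proximal tubule uses to clear organic compounds were called higher more often than all genes. The difference was not tested and did not hold without PBS mouse 10. Among 21 organic ion and drug transporters, 4 rose (19%) and 1 fell, and the median fold change was 0.29. None was called higher without PBS mouse 10, 12 were without PBS mouse 4, and 11 were with mouse 9. Slco1a6, an organic anion transporting polypeptide, measured 67.6 to 192 CPM with PBS (median 122) and 129.7 to 249 CPM with RGLS4326 (median 162). All treated mice were above the PBS median, and the log2 fold change was 0.55 (SE 0.15, adjusted p = 0.0289, edgeR). The urate transporter Slc22a12 rose by 0.29, Slc17a1, a phosphate and urate transporter, by 0.33, and Slc22a6 is given above. Abcc4, an efflux pump for organic anions and cyclic nucleotides, fell by 0.35 (SE 0.11, adjusted p = 0.0406, edgeR), with 8 PBS mice above every treated mouse.

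Among 30 glucuronosyl-, sulfo- and glutathione transferases, 4 rose (13.3%), namely Ugt8a by 0.50, Ugt2b38 by 0.58, Ugt1a9 by 0.60 and Sult1d1 by 0.44, and 1 fell, Gstm2 by 0.39. Reads of the Ugt1a genes share exons and cannot be assigned to Ugt1a9 with certainty. Among 30 cytochrome P450 genes 4 rose (13.3%), the median being 0.12, and Cyp2j13 rose by 0.36 (SE 0.10, adjusted p = 0.0341, edgeR). Of 14 androgen-responsive genes of the male proximal tubule, 2 were called higher and the median was 0.35. With mouse 9, 6 transferases, 7 P450 genes and 6 androgen-responsive genes were called higher. Without PBS mouse 10 none of these 3 lists had a gene called higher, and without PBS mouse 4 the numbers were 7, 9 and 9.

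**Figure D3:**
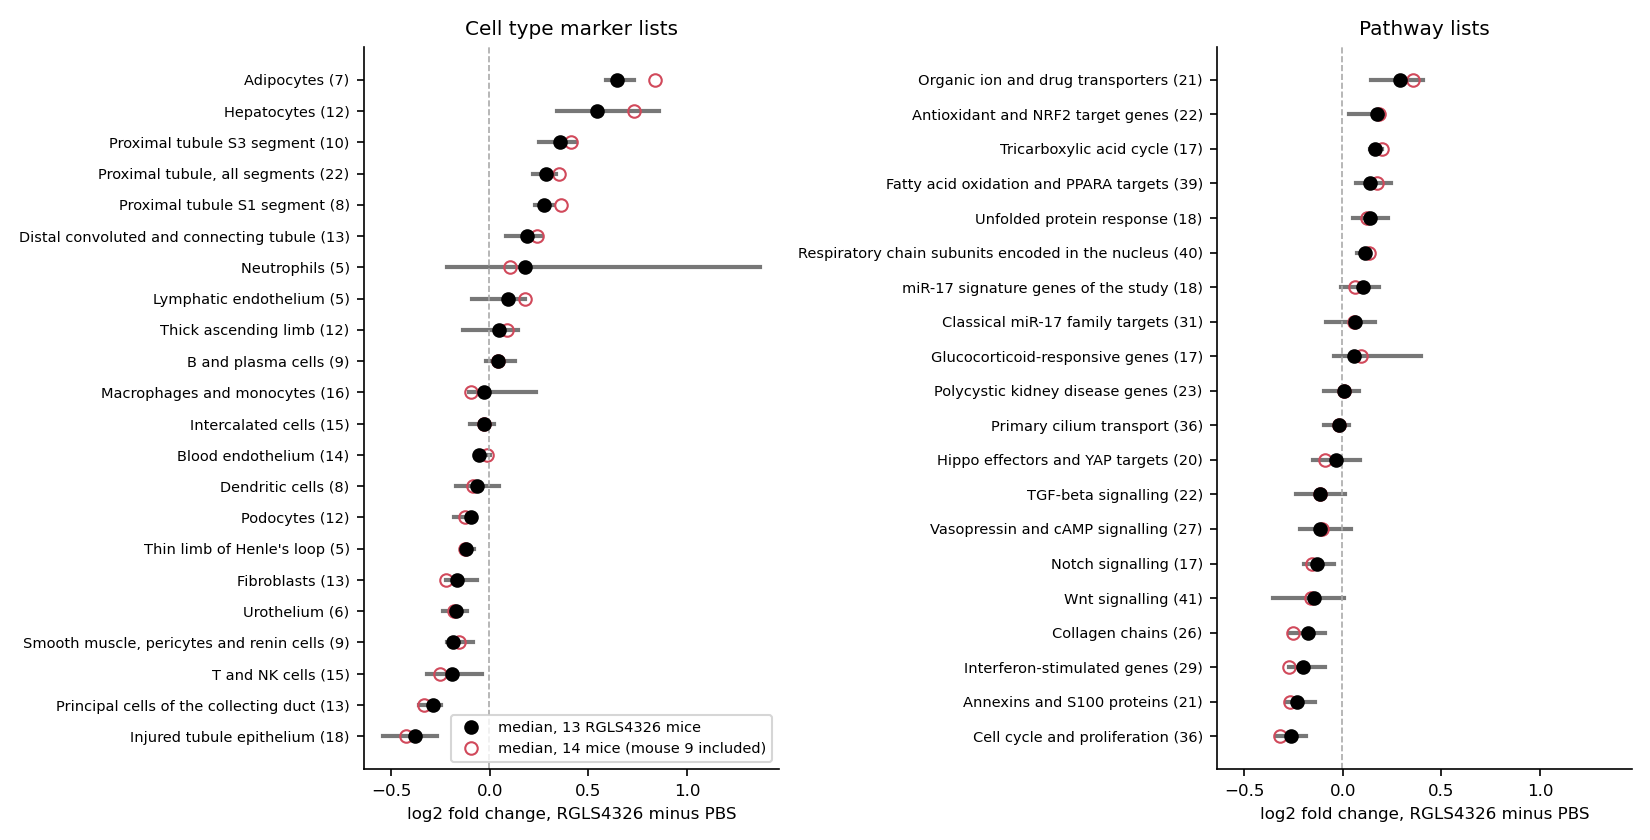
Median log2 fold change of RGLS4326 minus PBS (horizontal axis) over the genes of each cell type list with at least 5 genes tested and of selected pathway lists, with the number of genes in brackets. Filled circles are medians without mouse 9, grey bars run between the quartiles, open red circles include mouse 9, and the dashed line is the median of all genes, −0.01. Proximal tubule lists lie on the right and principal cell and injured tubule lists on the left.

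Principal cells of the collecting duct showed the largest share of called markers among the cell type lists with at least 10 genes tested. Of 13 markers, 6 fell (46.2%, against 3.48% of all genes), none rose, and all 13 fold changes were negative, with a median of −0.29. The list level ran from 6.46 to 7.09 with PBS (median 6.77) and from 6.23 to 6.66 with RGLS4326 (median 6.47). All 13 treated mice were below the PBS median, although the 2 groups overlapped at the bottom of the PBS range. In CD1 kidneys the level was 5.31 to 5.82. The median fold change was −0.13, −0.29 and −0.46 in series 1, 2 and 3, between 4 and 8 markers were called lower when 1 mouse was left out, and 7 of the 13 were called lower with mouse 9.

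Avpr2, the vasopressin receptor through which water reabsorption is switched on (chromosome X, 73891765 to 73894428 in GRCm38), measured 74.9 to 109 CPM with PBS (median 92.7) and 59.6 to 87.3 CPM with RGLS4326 (median 73.8). Of the PBS mice 8 lay above every treated mouse, and 7 treated mice lay below every PBS mouse. It fell by 0.33 on the log2 scale (SE 0.06, adjusted p = 0.00504, edgeR) and was called in all 25 leave-one-out fits. In CD1 mice it measured 20.8 to 29.8 CPM.

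Aqp2, the vasopressin-regulated water channel of the apical membrane (chromosome 15, 99579056 to 99584545), measured 630.0 to 1760.2 CPM with PBS (median 1180.4) and 632 to 1085 CPM with RGLS4326 (median 772). It was below the PBS median in all 13 treated mice and fell by 0.50 (SE 0.15, adjusted p = 0.0395, edgeR). The lowest library of all 25 was nevertheless a PBS mouse, and the call held in 13 of the 25 leave-one-out fits. Aqp3, the water channel on the basolateral side, fell by 0.44 (SE 0.10, adjusted p = 0.0158, edgeR) and was called in all 25.

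The beta and gamma subunits of the epithelial sodium channel fell as well. Scnn1b went from a median of 136 CPM (104 to 165) to 105 CPM (78.6 to 128), a log2 fold change of −0.36 (SE 0.07, adjusted p = 0.00807, edgeR). Scnn1g went from 119.8 CPM (96.0 to 138) to 94.0 CPM (77.9 to 117), a log2 fold change of −0.28 (SE 0.06, adjusted p = 0.0151, edgeR). For each, all 13 treated mice were below the PBS median. Hsd11b2, the enzyme that protects the mineralocorticoid receptor from glucocorticoids, fell by 0.26 (SE 0.07, adjusted p = 0.0293, edgeR).

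Other nephron segments showed few calls. Of 15 intercalated cell markers 2 fell (13.3%, against 3.48% of all genes), the vesicular channel Aqp6 by 0.26 and the transcription factor Dmrt2 by 0.46. The median was −0.03. Neither was called without PBS mouse 10. Cldn19, a claudin that makes the thick ascending limb permeable to magnesium and calcium, fell by 0.24 (SE 0.07, adjusted p = 0.0327, edgeR). It was the only called gene of 12 markers of that segment (8.33%). None of 13 distal convoluted and connecting tubule markers was called, although 11 fold changes were positive and the median was 0.19. With mouse 9, 3 of them were called higher, and without RGLS4326 mouse 2 the number was also 3. None of 12 podocyte, 5 thin limb and 6 urothelium markers was called either, with medians of −0.10, −0.12 and −0.17, although 1 podocyte marker was called lower with mouse 9. Among 24 transcription factors of nephron identity, Irx3 rose by 0.31 (SE 0.08, adjusted p = 0.0250, edgeR), and Grhl2, an epithelial regulator of the collecting duct, fell by 0.34 (SE 0.09, adjusted p = 0.0250, edgeR). The third called gene of that list was Hnf4a, and with mouse 9 3 were called higher and 3 lower. None of the 24 was called without PBS mouse 10.

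**Figure D4:**
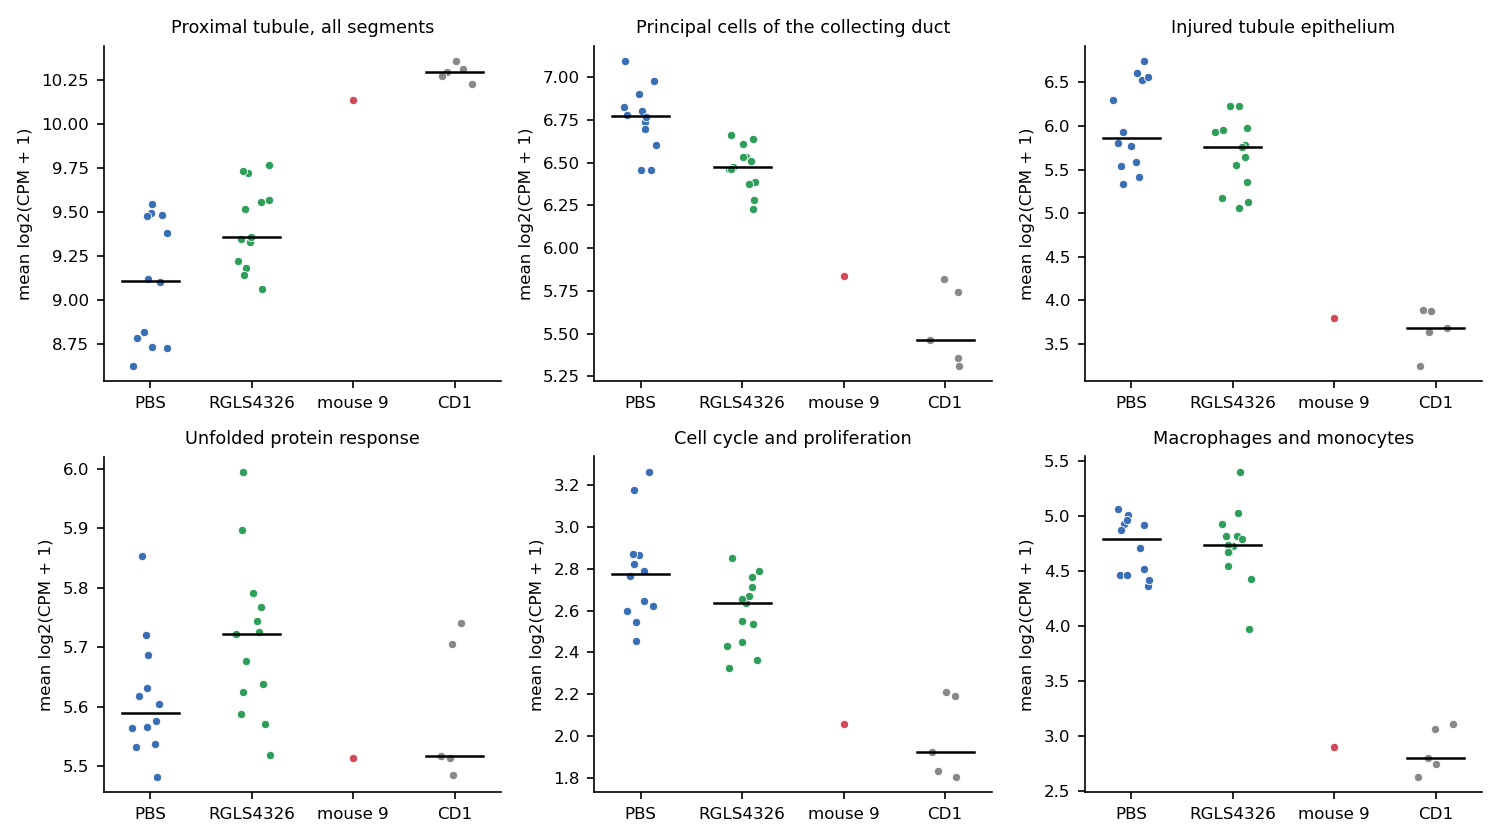
Mean log2(CPM + 1) over the genes of 6 lists (vertical axes) in each PBS mouse (blue), RGLS4326 mouse (green), mouse 9 (red) and CD1 mouse (grey), with group medians as black lines. Treated mice lie below the PBS median of principal cell markers in 13 of 13 cases and above that of proximal tubule markers in 12 of 13, whereas macrophage levels overlap throughout.

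Markers of injured tubule epithelium were lower in median with RGLS4326, but the groups overlapped. Of 18 markers 3 fell (16.7%, against 3.48% of all genes), none rose, and the median fold change was −0.38. List levels ran from 5.33 to 6.75 with PBS (median 5.86) and from 5.06 to 6.23 with RGLS4326 (median 5.76), and 5 treated mice were above the PBS median. With mouse 9, 4 were called lower. None was called without PBS mouse 10, and 6 were called without PBS mouse 4. Mmp7, the secreted protease matrilysin and a target of Wnt signalling, showed the largest fall among called genes that averaged 5 CPM or more. It measured 3.61 to 46.8 CPM with PBS (median 7.97) and 1.37 to 12.1 CPM with RGLS4326 (median 6.47). The 2 medians were close, and the fitted change of −1.51 (SE 0.43, adjusted p = 0.0334, edgeR) rested on 5 PBS mice above every treated mouse and 4 treated mice below every PBS mouse. The call held in 15 of 25 leave-one-out fits.

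Prom1, which encodes the membrane protein CD133, fell by 0.39 (SE 0.11, adjusted p = 0.0312, edgeR), and the transcription factor Sox4 fell by 0.52 (SE 0.15, adjusted p = 0.0348, edgeR). Havcr1, the proximal injury marker KIM-1, had a log2 fold change of 0.22 (SE 0.20, adjusted p = 0.453, edgeR). Lcn2 ran from 205 to 1205 CPM with PBS (median 444) and from 126 to 608 CPM with RGLS4326 (median 366). Its log2 fold change of −0.70 (SE 0.32) did not pass the test (adjusted p = 0.129, edgeR). The 4 highest values were PBS mice and the 4 lowest were treated mice. Among 21 annexins and S100 proteins 4 fell (19%, against 3.48% of all genes), namely Anxa2 by 0.44, Anxa5 by 0.26, Anxa6 by 0.26 and Anxa11 by 0.14. The median was −0.23. Leaving out 1 mouse gave 1 (PBS mouse 10) to 8 (PBS mouse 4) called annexin and S100 genes, and with mouse 9 8 were called lower and 1 higher.

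Genes of Wnt signalling, a pathway of tubule growth and patterning, fell in 6 of 41 cases (14.6%, against 3.48% of all genes). None rose, and the median was −0.14. Axin2, a negative regulator that is itself switched on by the pathway, measured 5.11 to 16.5 CPM with PBS (median 11.2) and 3.35 to 11.2 CPM with RGLS4326 (median 6.38). It was below the PBS median in all 13 treated mice and fell by 0.66 (SE 0.19, adjusted p = 0.0356, edgeR). The ligand Wnt9b fell by 0.78 (SE 0.24, adjusted p = 0.0415, edgeR), the transcriptional repressor Tcf7l1 by 0.32 (SE 0.08, adjusted p = 0.0152, edgeR) and the receptor-degrading ligase Rnf43 by 0.38 (SE 0.10, adjusted p = 0.0218, edgeR). The receptors Fzd8 and Lrp5 fell by 0.20 and 0.14, and Lrp5 was not called with mouse 9 (−0.11, adjusted p = 0.0861, edgeR). Between 2 and 14 of the 41 genes were called lower when 1 mouse was left out, the extremes being PBS mouse 10 and RGLS4326 mouse 2, and 10 were called with mouse 9.

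Of 17 Notch genes the ligands Dll1 and Jag1 fell, by 0.22 (SE 0.06, adjusted p = 0.0229, edgeR) and 0.19 (SE 0.06, adjusted p = 0.0352, edgeR). Jag1 was called in 15 of the 25 leave-one-out fits, and 1 (without PBS mouse 10) to 3 (without RGLS4326 mouse 2) Notch genes were called lower in them. Among 20 Hippo effectors and YAP target genes, 3 fell and 1 rose. None was called without PBS mouse 10, and with mouse 9 4 were called lower and 1 higher. Tead2, a DNA-binding partner of YAP, fell by 0.64 (SE 0.17, adjusted p = 0.0274, edgeR), the junction proteins Amotl1 and Amotl2 fell by 0.31 and 0.17, and Nt5e, the ectonucleotidase CD73, rose by 0.32. Erbb2, a receptor kinase of the EGF receptor family, fell by 0.19 (SE 0.04, adjusted p = 0.00710, edgeR), with 10 treated mice below every PBS mouse. None of 15 genes of the insulin-like growth factor axis was called, and 1 was called lower with mouse 9.

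Cell cycle genes were lower in 34 of 36 cases, with a median of −0.26, and 5 fell (13.9%, against 3.48% of all genes). Between 1 (without PBS mouse 10) and 10 (without PBS mouse 4) were called when 1 mouse was left out. E2f2, an activator of replication genes, measured 5.95 to 7.83 CPM with PBS (median 6.90) and 4.15 to 7.07 CPM with RGLS4326 (median 5.63). In 10 treated mice it lay below every PBS mouse, and it fell by 0.34 (SE 0.08, adjusted p = 0.0177, edgeR). Cdk2, a kinase of entry into S phase, fell by 0.18, and Mcm4, Mcm6 and Mcm7, subunits of the replicative helicase, fell by 0.18, 0.45 and 0.23. Mcm6 was the exception when mouse 9 was included, with a log2 fold change of −0.15 (adjusted p = 0.636, edgeR). CD1 mice and mouse 9 measured 29.7 to 34.1 and 33.0 CPM of it, against at most 16 CPM in the 25 compared mice. The senescence gene Cdkn2a fell by 0.99 (SE 0.31, adjusted p = 0.0451, edgeR), from a median of 2.27 CPM to 1.39 CPM, and the p53 target Ccng1 rose by 0.24 (SE 0.06, adjusted p = 0.0203, edgeR).

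Among called genes that averaged 5 CPM or more, the 10 largest rises ran from 0.60 to 0.89 on the log2 scale. Mfsd2a, a lysophosphatidylcholine transporter, measured 10.1 to 47.3 CPM with PBS (median 20.9) and 28 to 79.6 CPM with RGLS4326 (median 49.7). It rose by 0.89 (SE 0.25, adjusted p = 0.0312, edgeR), with 0.38, 0.61 and 1.80 in series 1, 2 and 3. Slc16a14, an orphan member of the monocarboxylate transporter family, rose by 0.84 (SE 0.20, adjusted p = 0.0166, edgeR), from a median of 10.7 CPM to 18.9 CPM. The others were the chemokine Ccl28, the AMP kinase subunit Prkag3, the first enzyme of heme synthesis Alas1, the transporter Slc22a26, the collagen Col19a1, the adaptor Sh3bp2, the mitotic kinesin Kif20b and the fucosyltransferase Fut9. In each of Mfsd2a, Slc16a14 and Sh3bp2 all treated mice were above the PBS median, and for Fut9 12 of the 13 were.

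The 10 largest falls ran from −0.67 to −1.51. After Mmp7 came Atp12a, a potassium-transporting proton pump, which measured 3.10 to 17.5 CPM with PBS (median 6.79) and 1.36 to 7.12 CPM with RGLS4326 (median 3.75), a log2 fold change of −0.99 (SE 0.26, adjusted p = 0.0229, edgeR). Scara3, a scavenger receptor, resembled Mmp7 in that its group medians were close (5.25 CPM with PBS and 5.42 CPM with RGLS4326). Its fitted fall of 0.82 (SE 0.25, adjusted p = 0.0434, edgeR) rested on 5 PBS mice above and 5 treated mice below the other group. The others were Ccl8 and Wnt9b, the prostaglandin D synthase Ptgds, the RNA-binding protein Mex3a, the ribonuclease Rnase1, the secreted glycoprotein Stc2 and the membrane protein Tmem158. Ptgds fell by 0.78 (SE 0.18, adjusted p = 0.0135, edgeR) and was called in all 25 leave-one-out fits, whereas Rnase1 was called in 12.

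Of the 10 genes with the smallest p-values, 8 differed by less than 0.5 on the log2 scale, and the immune receptors Fcrl5 and Fpr2 differed by more. Ficd, an enzyme that modifies the endoplasmic reticulum chaperone BiP (chromosome 5, 113735758 to 113740607), measured 10.3 to 12.6 CPM with PBS (median 10.9) and 12.1 to 15.4 CPM with RGLS4326 (median 13.9). The groups met only at their edges, with 11 PBS mice below every treated mouse. It rose by 0.33 (SE 0.05, adjusted p = 0.000298, edgeR), with 0.29, 0.28 and 0.40 in series 1, 2 and 3. Map3k5, the stress kinase ASK1, measured 49.7 to 76.8 CPM with PBS (median 60.4) and 74.2 to 95.6 CPM with RGLS4326 (median 85.5), a rise of 0.43 (SE 0.06, adjusted p = 0.000298, edgeR). The CD1 range of 60.2 to 71.9 CPM lay below every RGLS4326 mouse, and mouse 9 measured 66.1 CPM.

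Several others of these 10 genes encode chaperones or membrane proteins. The Hsp40 protein Dnaja4 rose by 0.36, Derl2, a component of the machinery that exports misfolded proteins from the endoplasmic reticulum, by 0.24, the Hsp90 partner Ptges3 by 0.28 and the membrane protein Tmem243 by 0.43. The single gene of the 10 that fell was Oat, ornithine aminotransferase, by 0.31 (SE 0.05, adjusted p = 0.00101, edgeR), from a median of 211 CPM (171 to 244) to 174 CPM (152 to 205). The transcript uc009vev.1, which the files list without a gene symbol, rose by 0.41. Fcrl5 and Fpr2, the other members of the 10, are described with the immune genes. All 10 were called in every leave-one-out fit and with mouse 9.

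The unfolded protein response is the programme that raises chaperones and degradation factors when proteins misfold in the endoplasmic reticulum. Of 18 genes of its list 4 rose (22.2%, against 4.66% of all genes), none fell, and the median was 0.14. Hspa5, which encodes BiP, measured 390.2 to 495 CPM with PBS (median 444) and 441 to 717 CPM with RGLS4326 (median 517). In 10 treated mice it lay above every PBS mouse, and it rose by 0.27 (SE 0.07, adjusted p = 0.0252, edgeR). The BiP partner Dnajb9 rose by 0.32 (SE 0.07, adjusted p = 0.0110, edgeR), the transcription factor Xbp1 by 0.23 (SE 0.07, adjusted p = 0.0341, edgeR) and the degradation factor Edem1 by 0.23 (SE 0.07, adjusted p = 0.0415, edgeR). The list level exceeded the PBS median in 10 of the 13 treated mice, and the groups overlapped. Without PBS mouse 10 or RGLS4326 mouse 8, 1 gene of the list was called, and with mouse 9 5 were.

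The promoter of Hspa5 (RefSeq, GRCm38.p6, plus strand, chr2:34771840-34772139) is shown because it holds the endoplasmic reticulum stress element, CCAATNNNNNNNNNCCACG, searched on both strands from 250 bases before to 50 bases after the gene start. Capitals mark the match, whose first base lies 65 bases before the start.
Hspa5: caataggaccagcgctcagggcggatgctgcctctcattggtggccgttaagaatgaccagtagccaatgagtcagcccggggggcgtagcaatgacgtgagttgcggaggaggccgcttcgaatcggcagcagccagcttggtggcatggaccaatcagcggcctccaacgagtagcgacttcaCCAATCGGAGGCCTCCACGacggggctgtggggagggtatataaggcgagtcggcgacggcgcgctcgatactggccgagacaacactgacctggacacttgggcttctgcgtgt
The element was found in 37 of 27025 promoters (0.137%), in 19 of 11254 promoters of tested genes (0.169%) and in 3 of 527 promoters of genes that rose (0.569%), those of Hspa5, the lectin chaperone Canx and the ubiquitin ligase Syvn1. Canx rose by 0.17 and Syvn1 by 0.16. It was found in 0 of 385 promoters of genes that fell and in 4 of 17 promoters of the unfolded protein response list, of which only that of Hspa5 belongs to a gene that rose. A match describes the letters in this window and not binding.

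Of 17 glucocorticoid-responsive genes 4 rose (23.5%, against 4.66% of all genes) and none fell, although the median was 0.06. Leaving out PBS mouse 9, RGLS4326 mouse 8 or RGLS4326 mouse 13 left 2 of them called. Fkbp5, a co-chaperone of the glucocorticoid receptor, measured 44.5 to 79.9 CPM with PBS (median 57.8) and 63.9 to 118 CPM with RGLS4326 (median 83.1). In 8 treated mice it lay above every PBS mouse, and it rose by 0.58 (SE 0.10, adjusted p = 0.00299, edgeR). Errfi1, an inhibitor of the EGF receptor, rose by 0.53 (SE 0.11, adjusted p = 0.00945, edgeR), the zinc finger factor Zbtb16 by 0.79 (SE 0.21, adjusted p = 0.0255, edgeR) and the transcription factor Klf9 by 0.40 (SE 0.12, adjusted p = 0.0360, edgeR). None of 18 circadian clock genes was called, with a median of 0.25, and 2 were called higher with mouse 9. The time of day at which kidneys were taken is not given in the sources used here.

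Mitochondrial genes had small positive fold changes. All 40 nuclear-encoded respiratory chain subunits were positive, with a median of 0.11. Only 1 of them rose (2.50%, against 4.66% of all genes), Ndufa1 by 0.17 (SE 0.05, adjusted p = 0.0441, edgeR). All 17 tricarboxylic acid cycle genes were positive, with a median of 0.17, and 3 rose (17.6%), namely Cs (citrate synthase) by 0.13, Idh3a by 0.20 and Pdha1 by 0.22. Of 39 genes of fatty acid oxidation 3 rose (7.69%, against 4.66% of all genes), the median being 0.14. They included the peroxisomal acyltransferase Crot by 0.32 and the fatty acid hydroxylase Cyp4a12a by 0.54. All 28 genes of amino acid breakdown were positive, with a median of 0.21, and 2 rose (7.14%), Ddo and Hibadh. With mouse 9, 6, 9, 7 and 5 genes of these lists were called higher. No gene of these 4 lists was called higher without PBS mouse 10. The highest numbers with 1 mouse left out were 6 respiratory chain genes, 9 tricarboxylic acid cycle genes, 9 fatty acid oxidation genes and 7 amino acid breakdown genes, reached without PBS mice 7, 4, 12 and 4.

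Among antioxidant genes 5 of 22 rose (22.7%, against 4.66% of all genes), the median being 0.17. The number ran from 1 (without PBS mouse 10) to 9 (without PBS mouse 4) when 1 mouse was left out. With mouse 9 it was 9. Prdx1 and Prdx3, which reduce peroxides in the cytosol and in mitochondria, rose by 0.18 and 0.21, the glutathione-synthesis genes Gclc and Gclm by 0.33 and 0.25, and the quinone reductase Nqo1 by 0.22 (SE 0.06, adjusted p = 0.0335, edgeR). Of 15 iron genes, Ireb2, which controls translation of iron proteins, rose by 0.36 (SE 0.09, adjusted p = 0.0203, edgeR), and the ferritin heavy chain Fth1 rose by 0.19. With mouse 9, 5 iron genes were called higher, and without PBS mouse 4 6 were. Lamp2, a lysosome membrane protein, rose by 0.36 (SE 0.09, adjusted p = 0.0219, edgeR).

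Lipid and glucose genes moved in both directions. Scd2, a fatty acid desaturase, fell by 0.49 (SE 0.11, adjusted p = 0.0114, edgeR), and the elongase Elovl6 fell by 0.28 (SE 0.06, adjusted p = 0.0132, edgeR), whereas malic enzyme Me1 rose by 0.29. Slc2a1, the glucose transporter GLUT1, fell by 0.22 (SE 0.05, adjusted p = 0.0166, edgeR) and was the only call among 18 glycolysis genes, of which 3 were called lower and 1 higher with mouse 9. Of 24 cholesterol synthesis genes 2 fell and 1 rose, while 17 fold changes were positive and the median was 0.05. With mouse 9, 3 were called higher and 4 lower, and leaving out 1 mouse gave 0 to 4 higher and 1 to 4 lower, the extremes being PBS mice 10 and 4. The kinase Mvk fell by 0.25 (SE 0.06, adjusted p = 0.0166, edgeR), and Hsd17b7, a sterol reductase, rose by 0.20 (SE 0.06, adjusted p = 0.0418, edgeR). Of 10 genes of the renin-angiotensin system, the angiotensin-(1-7) receptor Mas1 rose by 0.49 (SE 0.16, adjusted p = 0.0493, edgeR). Of 17 hypoxia-inducible genes, the mitophagy receptor Bnip3 rose by 0.30 (SE 0.08, adjusted p = 0.0203, edgeR) and Slc2a1 fell.

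Immune markers did not move together. Of 16 macrophage and monocyte markers 1 rose (6.25%, against 4.66% of all genes), Emr1, the F4/80 antigen of mature macrophages. The median of the list was −0.03. Emr1 measured 13.2 to 26.4 CPM with PBS (median 17.4) and 13.2 to 50.7 CPM with RGLS4326 (median 23.6). In 4 treated mice it lay above every PBS mouse, and the log2 fold change was 0.53 (SE 0.15, adjusted p = 0.0329, edgeR). With mouse 9, which measured 3.20 CPM, Emr1 was not called (0.44, adjusted p = 0.126, edgeR).

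The formyl peptide receptors, which guide neutrophils and macrophages to bacterial and mitochondrial peptides, rose among 5 neutrophil markers tested. Fpr2 measured 0.414 to 2.03 CPM with PBS (median 1.23) and 1.75 to 6.80 CPM with RGLS4326 (median 2.88), a rise of 1.37 (SE 0.21, adjusted p = 0.000820, edgeR). Fpr1 measured 0.0465 to 1.04 CPM with PBS (median 0.518) and 0.745 to 4.63 CPM with RGLS4326 (median 1.30), a rise of 1.73 (SE 0.31, adjusted p = 0.00392, edgeR). In each, 10 treated mice lay above every PBS mouse, and the calls held in all 25 leave-one-out fits. The 2 genes are neighbours on chromosome 17 with related sequences, so reads could be divided between them with error. S100a9 and Csf3r, which define neutrophils, had log2 fold changes of −0.22 (adjusted p = 0.565) and 0.18 (adjusted p = 0.408) in the same edgeR test.

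Fcrl5, an Fc receptor-like protein of B cells, measured 0.0996 to 0.646 CPM with PBS (median 0.359) and 0.319 to 4.03 CPM with RGLS4326 (median 1.25). In 12 of 13 treated mice it lay above every PBS mouse, and it rose by 1.97 (SE 0.29, adjusted p = 0.000405, edgeR). The series values were 2.18, 1.97 and 1.71, and CD1 mice measured at most 0.0591 CPM. The other 8 B and plasma cell markers tested were not called.

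Of 31 chemokines and their receptors 2 rose and 1 fell. With mouse 9 or without PBS mouse 10 fewer were called, 1 higher and 1 lower in the first case and 0 higher and 1 lower in the second. Ccl8, which attracts monocytes, measured 3.99 to 14.4 CPM with PBS (median 10.5) and 2.08 to 10.04 CPM with RGLS4326 (median 5.56). All 13 treated mice were below the PBS median, and it fell by 0.83 (SE 0.20, adjusted p = 0.0158, edgeR). Ccl4 rose by 0.56 (SE 0.17, adjusted p = 0.0443, edgeR), and was not called with mouse 9 (0.48, adjusted p = 0.0869, edgeR), and Ccl28 is given above. None of 15 T and NK cell and 8 dendritic cell markers was called, with medians of −0.19 and −0.06. Nor was any of 24 complement, 17 antigen presentation or 24 TNF and NF-kB genes, whose medians were −0.05, −0.15 and −0.17. With mouse 9, 1 complement gene, 2 TNF and NF-kB genes and 1 T and NK cell gene were called lower. Leaving out 1 mouse gave 0 to 3 called lower in each of these 3 lists and in that of antigen presentation. Of 29 interferon-stimulated genes the RNA sensor Ddx58 fell by 0.20 (SE 0.06, adjusted p = 0.0312, edgeR), and the median was −0.20. With mouse 9, 4 of the interferon-stimulated genes were called lower, and without PBS mouse 4 7 were.

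**Figure D5:**
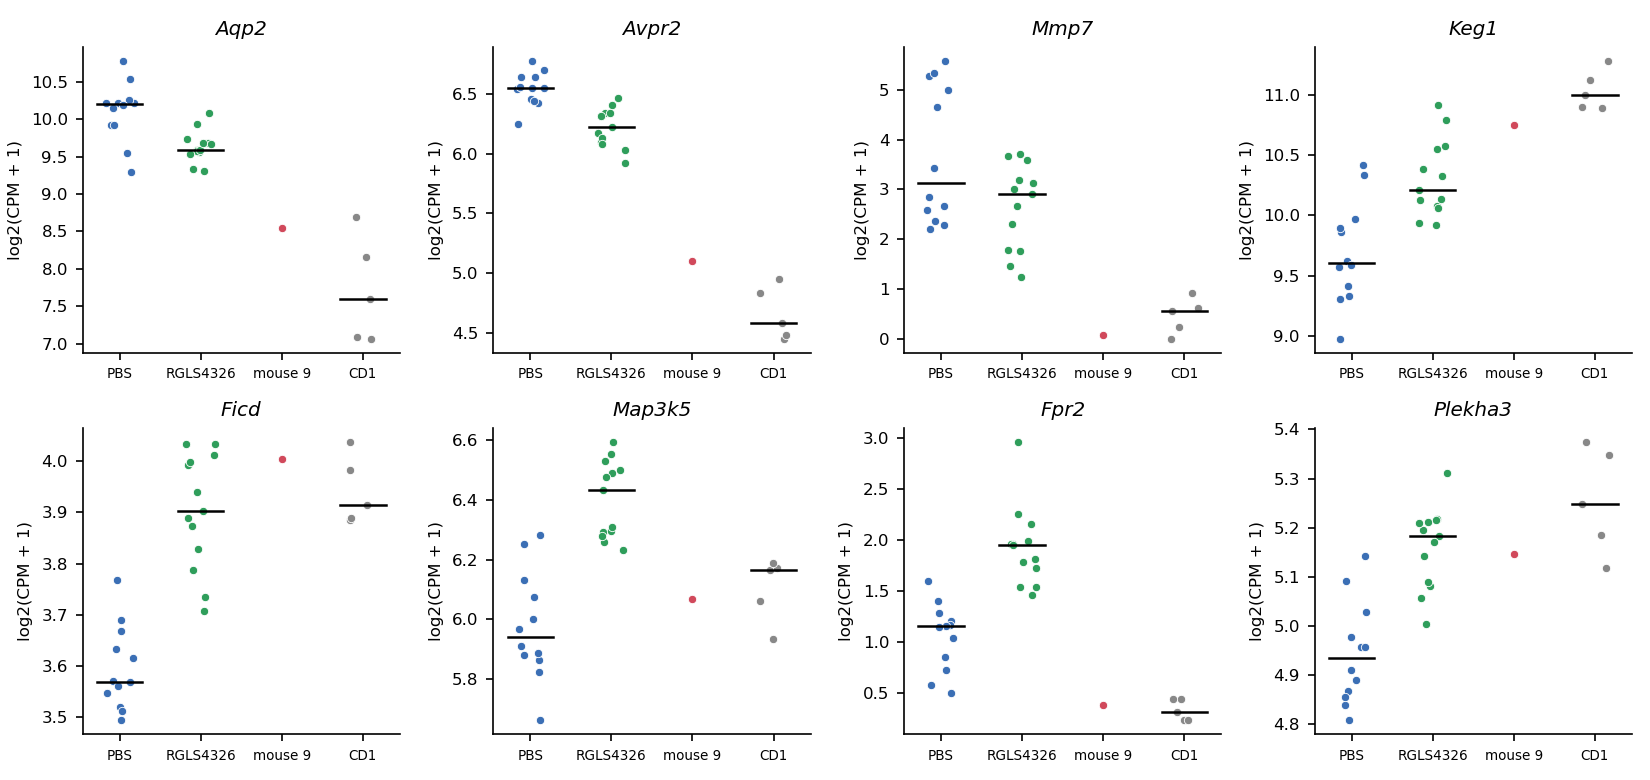
Expression on the log2(CPM + 1) scale (vertical axes) of 8 genes in each PBS mouse (blue), RGLS4326 mouse (green), mouse 9 (red) and CD1 mouse (grey), with group medians as black lines. Treated mice have lower medians than PBS mice for Aqp2 and Avpr2 and higher medians for Keg1, Ficd, Map3k5, Fpr2 and Plekha3, while the Mmp7 medians are close and 5 PBS mice lie above all treated mice. For Map3k5 and Fpr2 all treated mice exceed the CD1 mice and mouse 9.

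Genes of the connective tissue showed few calls. None of 13 fibroblast markers was called, with a median of −0.17, and Col1a1 and Col3a1 had log2 fold changes of −0.24 (adjusted p = 0.290) and −0.22 (adjusted p = 0.267) in the edgeR test. Of 26 collagen chains 2 fell, Col11a1 by 0.63 (SE 0.19, adjusted p = 0.0391, edgeR) and the basement membrane chain Col18a1 by 0.28 (SE 0.09, adjusted p = 0.0474, edgeR), and the median was −0.18. No collagen was called without PBS mouse 10, and 5 were called lower without RGLS4326 mouse 2. The matrix glycoprotein Thbs1 fell by 0.38 (SE 0.12, adjusted p = 0.0493, edgeR). Mmp14, a membrane-bound protease that cuts collagen, fell by 0.48 (SE 0.15, adjusted p = 0.0408, edgeR), and the inhibitor Timp3 rose by 0.26 (SE 0.08, adjusted p = 0.0448, edgeR). When 1 mouse was left out, 0 to 7 of 18 matrix metalloproteinases and inhibitors and 0 to 5 of 33 matrix glycoprotein genes were called lower. In each list 0 to 1 were called higher. Smad3, a transcription factor of TGF-beta signalling, fell by 0.20 (SE 0.05, adjusted p = 0.0199, edgeR) and was the only call among 22 genes of that pathway, of which 3 were called lower with mouse 9 and 5 without RGLS4326 mouse 2. Cspg4, the pericyte proteoglycan NG2, fell by 0.22 (SE 0.05, adjusted p = 0.0158, edgeR), whereas none of 14 blood endothelium markers was called, with a median of −0.05.

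Of 23 genes mutated in polycystic kidney disease, 3 fell and none rose, and the median was 0.00. With mouse 9, 3 were called lower and 2 higher, and leaving out 1 mouse gave 1 (PBS mouse 10) to 5 (PBS mouse 4) called lower. Bicc1, an RNA-binding protein of the tubule, measured 123 to 176 CPM with PBS (median 148) and 67.9 to 150.2 CPM with RGLS4326 (median 117). In 8 treated mice it lay below every PBS mouse, and it fell by 0.36 (SE 0.09, adjusted p = 0.0246, edgeR). Dzip1l, a protein of the ciliary transition zone, fell by 0.21 (SE 0.05, adjusted p = 0.0166, edgeR), and the transcription factor Glis2 fell by 0.12 (SE 0.04, adjusted p = 0.0381, edgeR). Pkd1 and Pkd2, which encode polycystin-1 and polycystin-2, were not called. Pkd1 measured 64.8 to 92.9 CPM with PBS and 68.4 to 96.4 CPM with RGLS4326, a log2 fold change of 0.02 (SE 0.06, adjusted p = 0.850, edgeR). Pkd2 had a log2 fold change of 0.16 (SE 0.07, adjusted p = 0.131, edgeR).

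Of 36 genes of primary cilium transport, Ift88 rose by 0.15 and Tctn2 fell by 0.16, neither of them called without PBS mouse 10. With mouse 9, 1 was called higher and 2 lower. Among 27 genes of vasopressin and cAMP signalling, 4 fell (14.8%) and 1 rose, with a median of −0.12. With mouse 9, 5 were called lower and 1 higher, and without PBS mouse 10 2 were called lower. Besides Avpr2, Aqp2 and Aqp3, these were Adcy6, the adenylyl cyclase of principal cells, which fell by 0.12 (SE 0.03, adjusted p = 0.0314, edgeR), and the stimulatory G protein subunit Gnas, which rose by 0.09 (SE 0.03, adjusted p = 0.0458, edgeR).

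Transcripts with a miR-17 site were examined in a signature list of 18 genes that the study derived from cultured mouse cells and not from these kidneys. Of the 18, 5 rose (27.8%, against 4.66% of all genes), none fell, and the median fold change was 0.10. The list level was 4.94 to 5.10 with PBS (median 5.04) and 5.04 to 5.16 with RGLS4326 (median 5.11), above the PBS median in 12 of 13 treated mice. CD1 mice and mouse 9 were below the PBS median, at 4.85 to 4.97 and 4.85. The median fold change was 0.10, 0.12 and 0.05 in series 1, 2 and 3, between 4 and 7 of the 18 were called higher when 1 mouse was left out, and 4 were called with mouse 9. The study normalized its signature to 6 housekeeping genes, which was not done here. Those 6 had a median fold change of 0.05, and 1 of them, Hprt, rose. Their level was above the PBS median in 10 of the 13 treated mice.

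Plekha3, a lipid-binding protein of the Golgi, measured 27.0 to 34.3 CPM with PBS (median 29.6) and 31.1 to 38.7 CPM with RGLS4326 (median 35.3). In 8 treated mice it lay above every PBS mouse, and it rose by 0.22 (SE 0.04, adjusted p = 0.00409, edgeR). The kinase Mink1 rose by 0.17 (SE 0.04, adjusted p = 0.0114, edgeR), with 10 treated mice above every PBS mouse, and the Hsp90-binding Cdc37l1 rose by 0.36 (SE 0.08, adjusted p = 0.0151, edgeR). P2rx4, an ATP-gated channel, rose by 0.15 (SE 0.03, adjusted p = 0.0146, edgeR) and was not called with mouse 9 (0.12, adjusted p = 0.0508, edgeR). Its CD1 range of 60.3 to 64.4 CPM lay below all 12 PBS mice. Zfp367, a zinc finger factor, rose by 0.25 (SE 0.08, adjusted p = 0.0466, edgeR).

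The sites of these 5 genes show the letters that pair with the seed. Each is read from the longest annotated 3′ untranslated region (GENCODE vM21, GRCm38), and capitals mark the match to seed bases 2 to 8, with the following A where it is present.
Plekha3, chr2:76695679-76695708, plus strand: aggatttctctGCACTTTAtagaatattgt
Plekha3, chr2:76696668-76696697, plus strand: tagaatgatcaGCACTTTAacaaaaattgg
Mink1, chr11:70614200-70614229, plus strand: attttctgaaaGCACTTTAatgattccccc
P2rx4, chr5:122728857-122728886, plus strand: gctctgtccaaGCACTTTAtaaggaaggag
Cdc37l1, chr19:29016178-29016207, plus strand: ttatgggtgctGCACTTTAtttttgtttgg
Zfp367, chr13:64135138-64135166, minus strand: gagagagaattGCACTTTttttttatatg
Zfp367, chr13:64134990-64135018, minus strand: tctcacaggaaGCACTTTgtgaataagac
All 18 signature genes held at least 1 match to the 7 bases GCACTTT and 15 held the 8 bases GCACTTTA.

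Across all tested genes with an annotated 3′ untranslated region, 1934 of 13817 (14%) held the 7-base match and 593 (4.29%) the 8-base match. Among genes that rose, 168 of 654 (25.7%) held the 7-base match and 66 (10.1%) the 8-base match. Among genes that fell, the shares were 56 of 491 (11.4%) and 18 (3.67%). The median untranslated region was 1703 bases long in genes that rose, 1291 in genes that fell and 1146 in all, and matches per kb numbered 0.143, 0.0758 and 0.10. The part of length and base composition in these shares was not tested beyond this. Of genes with a match 8.69% rose and 2.90% fell, with a median fold change of 0.04, and of genes without one 4.09% rose and 3.66% fell, with a median of −0.01.

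In a second list, 31 classical targets of the miR-17 family, 4 rose (12.9%), none fell, and the median was 0.06. With mouse 9, 9 were called. None was called without PBS mouse 10, and 10 were called without PBS mouse 4. The cell cycle inhibitor Rb1 rose by 0.23 (SE 0.07, adjusted p = 0.0345, edgeR), the acetyltransferase Kat2b by 0.25 (SE 0.07, adjusted p = 0.0377, edgeR) and the phosphatase Phlpp2 by 0.19 (SE 0.06, adjusted p = 0.0489, edgeR). The groups overlapped for these 3 genes, and CD1 kidneys were higher than the PBS range for each.

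Markers of tissues next to the kidney were measured in the same libraries. The median fold change was 0.64 over 7 adipocyte genes and 0.54 over 12 hepatocyte genes, and none was called. The adipocyte median ran from 0.30 without RGLS4326 mouse 2 to 1.63 without PBS mouse 3. With mouse 9, 3 hepatocyte genes were called higher, among them Alb (1.48, adjusted p = 0.0455, edgeR). Adipocyte levels were 0.0201 to 3.22 with PBS (median 0.172) and 0.0103 to 2.92 with RGLS4326 (median 1.16), on the log2(CPM + 1) scale. Hepatocyte levels were 1.69 to 3.49 with PBS (median 2.56) and 2.25 to 4.17 with RGLS4326 (median 2.97), and each list was above its PBS median in 10 of the 13 treated mice. Adipoq reached 11.2 CPM and was at 0 in some libraries, and Alb ran from 6.06 to 86.2 CPM. The part of these lists in the results above was not tested. The muscle myosin Myh4 was at 0 in 25 of 25 libraries, the adrenal enzyme Cyp11b2 in 24 and the mast cell protease Cpa3 in 19. None of 35 cytosolic ribosomal protein genes was called, although all 35 fold changes were negative with a median of −0.13. With mouse 9, 1 of them was called lower, and without PBS mouse 4 8 were.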

How the data were processed

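Total kidney RNA was sequenced as stranded paired-end mRNA libraries, 1 per mouse. The authors deposited raw counts per gene (23509 genes), made from reads trimmed with Trim Galore, aligned with STAR to GRCm38 and counted with HTSeq 0.6.1, and applied no normalization to these counts. The 5 rows that name no gene were left out.

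Genes were filtered with filterByExpr (15166 kept), scaled by TMM and fitted by edgeR 4.0.16 in R 4.3.3 with a quasi-likelihood model of 30 mice (12 PBS, 13 RGLS4326 and 5 CD1), 1 coefficient per group and no covariate. The contrast was RGLS4326 minus PBS, with Benjamini-Hochberg adjustment over all genes. Genes were called at an adjusted p under 0.05. SE was taken from the fold change and its F statistic, as |log2 fold change|/√F. List levels are means of log2(CPM + 1). Figures and summaries used Python 3.11.15.

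The left-out mouse, the comparison and all gene lists were chosen with earlier results of these data known, and lists are described by counts and medians with no test of the list. Named genes were those named by the study, the 10 smallest p-values, the 10 largest rises and falls among called genes averaging 5 CPM or more, up to 4 genes of each list by p, the genes that separate the strains, and markers at 0. Further members of lists, and Havcr1, Slc34a1, Canx and Syvn1, were named after their values were seen. Of the 76 lists, 27 had no called gene. For 9 genes the files use an older symbol. The procedure was tested on simulated data, drawn separately for each gene, so variation shared between genes was not covered.

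No pair of libraries was a duplicate within sampling noise (lowest chi-square per gene 4.61 with PBS and 6.58 with RGLS4326). Depth, 14892524 to 27459962 counts per library, limits genes with few counts most. Alternatives were mouse 9 included, the 25 mice alone, size factors by RLE, other filters, library number series, a replicate block, DESeq2 1.42.0 and each mouse left out. Some results are not reported here. Reads shared by near-identical genes could be divided with error.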

Additional observations from a re-analysis of the deposited data

Results flagged for a closer look

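List levels were checked for a single distant mouse among the 5 CD1 libraries, over 26 cell type lists. The PBS and RGLS4326 groups are too large for this check. In 2 lists 1 mouse lay far from the other 4, and chance alone marks about 1 in 20 groups. For proximal tubule S1 markers, CD1 mouse 1 had a level of 7.11 while the others lay between 7.30 and 7.38, a gap of 0.718 of the whole range. For hepatocyte markers, CD1 mouse 5 had a level of 4.14 while the others lay between 2.26 and 2.63, a gap of 0.803 of the range. CD1 mice enter no fold change of RGLS4326 against PBS, but they share its estimate of spread.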

How the results depend on the processing

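The count of 1234 called genes (706 higher, 528 lower, 145 past 0.5 on the log2 scale) depended on the processing. It was 2402 (1390, 1012 and 327) with mouse 9, 776 (355, 421 and 104) when the 25 mice were fitted without CD1, 2215 (1282, 933 and 177) with DESeq2 and 842 (464, 378 and 118) with no filter on low counts, where of these 4 values the number of higher genes moved by more than 1.5 times. In those fits 1200, 731, 1208 and 831 of the 1234 genes were called again. Within series 1, 2 or 3 alone the count was 0 in all 4 measures, in fits of 8 or 9 treated and PBS mice with at most 2 CD1 mice. Size factors by RLE, a mean of at least 1 CPM and series as a covariate gave 1231, 1282 and 1206 genes.

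Leaving out 1 mouse gave 351 to 2891 called genes, 204 to 1629 higher, 147 to 1304 lower and 44 to 351 past 0.5. Counts fell below 1234 by more than 1.5 times without PBS mice 2 (579), 3 (462), 5 (449), 9 (414), 10 (351) and 11 (813) and RGLS4326 mice 3 (526), 6 (572), 8 (402), 10 (518) and 13 (441). They rose by more without PBS mice 4 (2891), 8 (1900) and 12 (2260) and RGLS4326 mouse 2 (2799). The cause was not tested.

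A replicate block gave 46 genes (31 higher, 15 lower, 10 past 0.5), 45 of them among the 1234. Deviations of same-numbered mice from their group means correlated at −0.04 on average (11 pairs, −0.50 to 0.53, 4 of them over 0.1), against 0.00 for other pairs. An average over 11 pairs cannot tell whether same-numbered mice share more than a number, and this was not tested further.

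Among the genes named in this text, the sign of 3 uncalled changes reversed. Pkd1 was −0.044 in series 1, and was also below 0 without PBS mouse 7, PBS mouse 12 or RGLS4326 mouse 12 (−0.0069 to 0.0387 over the 25 fits that each left out 1 mouse). Havcr1 was −0.18 in series 3, and S100a9 was 0.041 in series 1 and 0.051 in series 2. Some list medians near 0 reversed as well. The median of macrophage and monocyte markers kept its sign in 31 of 36 alternatives and was 0.28 in series 1. That of polycystic kidney disease genes kept its sign in 18 of 36.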
